A study of Mus musculus with 24 samples.

Results

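Transcription factors of the cerebellar granule neuron lineage were examined by their gene symbols: Zic1, Zic2, Zic4, Zic5, En1, En2, Pax6, Neurod1 and Etv1. Of these 9 genes, 8 had a row with that symbol in the platform annotation, 1 row each, among 19572 rows with a gene. Neurod1 was not analysed here. RNA was taken from 3 brain regions, the cerebral cortex, the hippocampus and the cerebellum. The animals were wild-type mice (WT) and mice that lack glutamine synthetase, the enzyme that joins ammonia to glutamate, in the liver alone (KO). Each of the 6 groups held 4 arrays, 1 per animal, with the same animal numbers in all 3 regions of a genotype. The series asks how raised blood ammonia alters brain transcripts. The Cre driver, strain, age and sex were not given in the sources used here, and the row of the deleted gene was not analysed here.

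Granule neurons, the most numerous neurons of the cerebellum, arise from precursors of the rhombic lip, which divide at the cerebellar surface and then migrate inward. The Zic genes encode zinc finger proteins that are made in the precursors and remain on in mature granule cells. En1 and En2 encode the engrailed homeodomain proteins, which set up the midbrain and hindbrain territory in the embryo and pattern the cerebellum. Pax6, a paired-box protein, acts in granule precursors and their descendants, and Etv1, an ETS-domain protein, takes part in the late maturation of granule cells. Several of these factors also act outside the cerebellum: Pax6 and the Zic genes are known from olfactory bulb interneurons, Zic1 from the septum and the meninges, and Etv1 from neurons of cortical layer 5 and from the olfactory bulb.

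Upstream sequence is shown for 3 of the Zic genes and for En1, because in WT these Zic genes differed between cerebellum and cortex by 1.49 (Zic4) to 6.17 (Zic1) log2 units and En1 by 0.59. The bases are the 250 upstream of the start of each gene in RefSeq (build GRCm38.p6), written 5′ to 3′, which lie at chr9:91365769-91366018 on the minus strand (Zic1), chr9:91368722-91368971 on the plus strand (Zic4), chr14:122465659-122465908 on the minus strand (Zic5) and chr1:120602237-120602486 on the plus strand (En1). Capitals mark the CCAAT box (CCAAT, or ATTGG on the other strand) and the GC box (GGGCGG or CCGCCC), 2 common promoter motifs that were searched on both strands.
Zic1: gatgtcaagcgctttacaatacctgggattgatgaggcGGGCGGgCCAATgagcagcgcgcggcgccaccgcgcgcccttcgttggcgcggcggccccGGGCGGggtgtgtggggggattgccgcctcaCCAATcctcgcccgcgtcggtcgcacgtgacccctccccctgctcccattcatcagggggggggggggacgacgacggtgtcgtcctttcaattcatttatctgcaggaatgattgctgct
Zic4: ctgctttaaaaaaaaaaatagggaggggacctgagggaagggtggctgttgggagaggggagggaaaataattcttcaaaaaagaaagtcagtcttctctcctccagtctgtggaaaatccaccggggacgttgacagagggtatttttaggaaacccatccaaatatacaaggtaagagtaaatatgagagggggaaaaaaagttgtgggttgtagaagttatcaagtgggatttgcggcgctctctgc
Zic5: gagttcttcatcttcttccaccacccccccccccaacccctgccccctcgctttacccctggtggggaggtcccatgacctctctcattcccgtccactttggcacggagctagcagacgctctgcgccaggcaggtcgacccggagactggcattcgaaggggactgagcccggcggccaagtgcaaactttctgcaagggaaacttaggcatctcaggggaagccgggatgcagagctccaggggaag
En1: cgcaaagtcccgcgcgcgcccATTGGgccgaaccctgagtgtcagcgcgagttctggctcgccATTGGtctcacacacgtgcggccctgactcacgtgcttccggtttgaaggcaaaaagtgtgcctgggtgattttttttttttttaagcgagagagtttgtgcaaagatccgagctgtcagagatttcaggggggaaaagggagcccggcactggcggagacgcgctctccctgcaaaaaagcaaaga

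Zic1 and Zic4 are neighbours on chromosome 9 with no protein-coding gene between them, and their starts point away from each other. Zic2 and Zic5 are likewise neighbours on chromosome 14. The Zic1 window was 66.0% G and C and held 2 CCAAT boxes and 2 GC boxes, none of which overlapped another. The Zic4 window was 44.4% G and C and held neither motif, as did the Zic5 window at 62.4%. The En1 window (56.0%) held 2 CCAAT boxes. Of 32851 windows of this length in RefSeq, 33.8% held a CCAAT box and 32.7% a GC box, and the median content of G and C was 52.4%. The E-box CANNTG, the letters read by basic helix-loop-helix factors such as Neurod1 and Atoh1, stood once in each of the Zic1, Zic4 and Zic5 windows and 2 times in the En1 window, and 66.2% of all windows held it. The homeodomain core TAATTA, in 4.84% of all windows, was not in the windows of the 7 members that had an entry. These matches describe letters only.

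The tissues carried the genes of their labels. The mean of 18 mature granule cell markers was 12.89 to 14.37 in the 8 cerebellum arrays and 10.27 to 10.88 elsewhere. Some of these 18 genes were also in the marker lists of other cell types, such as Bergmann glia. The mean of 10 neocortical markers was 12.11 to 12.93 in cortex and 11.99 or less elsewhere, and that of 9 hippocampal markers was 10.67 or more in hippocampus and 9.48 or less elsewhere. Array KO 3 of the cerebellum stood apart: it had the lowest granule mean of the 8, where the other 7 began at 13.85, and 18 markers of brainstem and spinal cord averaged 9.38 in it and 7.55 to 7.96 in the rest. In the cortex, 14 olfactory bulb markers averaged 11.88 in KO 1 and 11.37 in KO 4, while the remaining 6 arrays ranged from 8.46 to 9.14. The chief differences between groups that involve these arrays are therefore given with and without them. Values are log2 expression as the authors deposited it, a fold is 2 to the power of a difference of such values, and with arrays the number of samples limits the precision. In such bulk tissue, fewer cells of a type and less RNA per cell cannot be told apart.

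In WT mice 7 of the 8 genes were higher in the cerebellum than in the cortex, by 2.8-fold (Zic4) to 72.1-fold (Zic1), and the same number were higher than in the hippocampus. A gene was called between regions at an adjusted p under 0.05 in limma, adjusted by Benjamini-Hochberg over all 19572 rows, with at least a 2-fold difference. Of all rows, 4.51% were called higher in cerebellum than in cortex and 3.98% higher than in hippocampus, with 5.47% and 5.85% called lower. The median difference of the 8 genes was 3.62 log2 against cortex and 3.65 against hippocampus, where the median of all rows was -0.02 and 0.03. The 4 cerebellum values lay above all 4 cortex values in all 8 genes, as they did in 17.3% of rows, and above all hippocampus values in all 8, as in 17.6% of rows. The 2 comparisons share the cerebellum arrays.

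**Figure D1:**
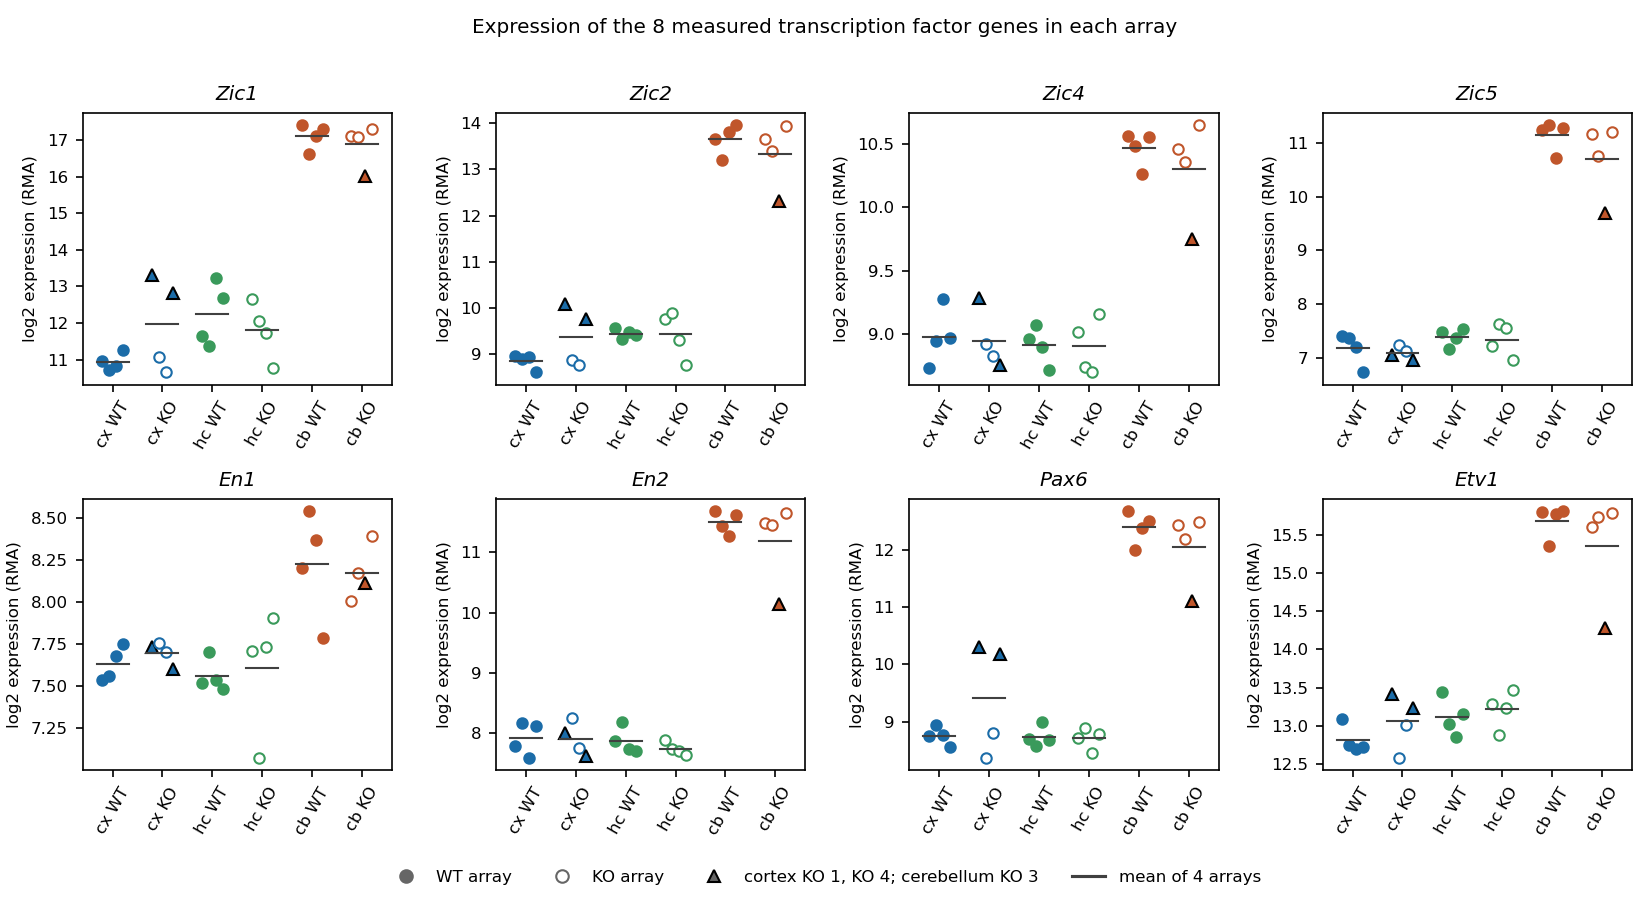
Log2 expression (vertical axis) of the 8 genes in each of 24 arrays by region (cx, cortex; hc, hippocampus; cb, cerebellum) and genotype, with the mean of 4 arrays as a bar. In each gene except En1 the 8 cerebellum arrays sit above the 16 others, cerebellum KO 3 (triangle) is the lowest of the 8, and cortex KO 1 and KO 4 (triangles) lie above the other 6 cortex arrays in Zic1, Zic2, Pax6 and Etv1.

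Zic1, a zinc finger factor that keeps granule precursors dividing, had the greatest difference of the 8. Its values in WT arrays 1 to 4 were 17.41, 16.61, 17.11 and 17.31 in the cerebellum, 10.97, 10.71, 10.83 and 11.25 in the cortex, and 11.65, 11.38, 13.24 and 12.67 in the hippocampus. The cerebellum stood clear of both other regions, and the hippocampus arrays, all above the cortex arrays, spread over almost 2 log2 units. Zic1 was higher in cerebellum than in cortex by 6.17 (SE 0.47, n = 4 arrays per group, adjusted p = 7.67e-11 in limma) and than in hippocampus by 4.87 (adjusted p = 5.09e-09 in limma). Here and below, the SE of a gene comes from 1 spread over all 24 arrays, not from the compared groups alone. The standard deviation of Zic1 was 0.36 in WT cerebellum, 0.23 in WT cortex and 1.30 in KO cortex. All 8 cerebellum arrays read over 16, the log2 ceiling of a 16-bit scanner reading, so how far such values follow RNA is not known.

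Zic2, a close relative of Zic1 with the same kind of zinc fingers, read 13.67, 13.20, 13.82 and 13.96 in WT cerebellum, 8.96, 8.89, 8.94 and 8.60 in cortex and 9.55, 9.33, 9.47 and 9.42 in hippocampus. Its difference was 4.82 (SE 0.29) from cortex and 4.22 from hippocampus, with adjusted p of 1e-12 and 1.11e-11 in limma. Zic5, its neighbour on the chromosome, read 11.24, 11.33, 10.73 and 11.28 in cerebellum, 7.41, 7.37, 7.20 and 6.73 in cortex and 7.49, 7.16, 7.38 and 7.53 in hippocampus. In both genes the lowest cerebellum array exceeded the highest array of the other regions by over 3 log2 units. Zic5 was higher in cerebellum by 3.97 (SE 0.23, adjusted p = 5.4e-13 in limma) than in cortex and by 3.76 than in hippocampus. Zic4, the neighbour of Zic1, read 10.56, 10.48, 10.27 and 10.55 in cerebellum, 8.73, 8.94, 9.28 and 8.97 in cortex and 8.96, 9.07, 8.90 and 8.72 in hippocampus. Cortex and hippocampus overlapped in Zic4, and the cerebellum exceeded them by 1.49 (SE 0.16, adjusted p = 3.45e-08 in limma) and 1.56 (adjusted p = 1.7e-08).

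The 2 engrailed genes differed in how far they stood out. En2, the engrailed gene known for its role in cerebellar folding, read 11.69, 11.44, 11.28 and 11.62 in WT cerebellum against 7.80, 8.17, 7.60 and 8.13 in cortex and 7.87, 8.19, 7.74 and 7.71 in hippocampus. It was higher in cerebellum by 3.58 (SE 0.22) than in cortex and by 3.63 than in hippocampus, with adjusted p of 1.45e-12 and 1.25e-12 in limma. En1, which is needed for the midbrain and cerebellum to form, read 8.20, 8.54, 8.37 and 7.79 in cerebellum, 7.53, 7.56, 7.68 and 7.75 in cortex and 7.52, 7.71, 7.54 and 7.48 in hippocampus. Its groups did not overlap, but the lowest cerebellum array exceeded the highest cortex array by only a few hundredths. The En1 difference was 0.59 (SE 0.15, adjusted p = 0.00238 in limma) from cortex and 0.66 (adjusted p = 8.7e-04) from hippocampus, a 1.51-fold and a 1.58-fold difference that missed the 2-fold minimum. Differences at least as large as that of En1 from cortex were seen in 20.8% of rows. En1 in all 3 regions, and En2 in cortex and hippocampus, read below the array medians of 8.72 to 8.82. Detection above background could not be judged at such values.

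Pax6 and Etv1 were both well above their levels elsewhere. Pax6, a factor of eye and forebrain development that also acts in granule cells, read 12.70, 12.002, 12.40 and 12.52 in WT cerebellum, 8.75, 8.93, 8.76 and 8.55 in cortex and 8.70, 8.57, 8.98 and 8.68 in hippocampus. Cortex and hippocampus overlapped, and the cerebellum was higher by 3.66 (SE 0.31, adjusted p = 6.8e-10 in limma) and 3.67 (adjusted p = 6.26e-10). Etv1 read 15.80, 15.35, 15.77 and 15.81 in cerebellum, 13.09, 12.74, 12.69 and 12.72 in cortex and 13.45, 13.02, 12.85 and 13.16 in hippocampus. The Etv1 values of the 3 other cerebellum arrays lay within 0.04 of each other, with WT 2 below them. Etv1 was higher in cerebellum by 2.87 (SE 0.24, adjusted p = 3.17e-10 in limma) than in cortex and by 2.57 (adjusted p = 2.4e-09) than in hippocampus.

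In KO mice the same 7 genes passed in both comparisons, against 3.63% of rows called higher in cerebellum than in cortex and 3.49% higher than in hippocampus. Against the cortex the KO differences were 4.92 for Zic1, 3.95 for Zic2, 1.36 for Zic4, 3.62 for Zic5, 3.27 for En2, 2.66 for Pax6 and 2.29 for Etv1, each below its WT difference. En1 differed by 0.47 (adjusted p = 0.0161 in limma), under 2-fold. Against the hippocampus the KO differences of the 7 genes ran from 1.40 (Zic4) to 5.09 (Zic1). Without cerebellum KO 3 they ran from 1.58 (Zic4) to 5.38 (Zic1). The KO cerebellum lay above the KO cortex and above the KO hippocampus without overlap in all 8 genes, as did 15.1% and 14.5% of rows, and without cerebellum KO 3, as did 20.7% and 20.6%. The test of these KO differences against the WT ones follows with the genotype comparisons. Without cerebellum KO 3 the differences from cortex were 5.21, 4.29, 1.54, 3.95, 3.62, 2.97 and 2.65 for these 7 genes. Without cortex KO 1 and KO 4 they were 6.02, 4.50, 1.43, 3.53, 3.18, 3.49 and 2.56, all called. En1 then had an adjusted p of 0.0851 in limma.

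**Figure D2:**
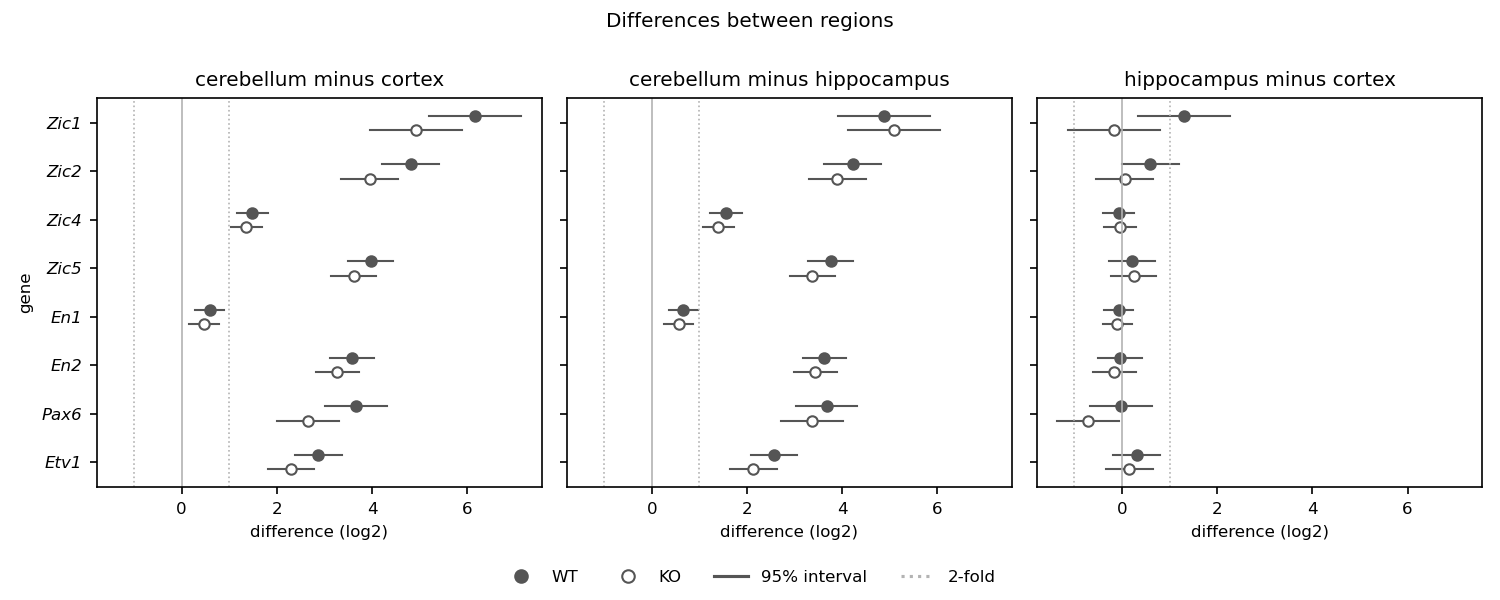
Differences between regions (horizontal axis, log2, first region minus second) for the 8 genes (vertical axis) in WT (filled) and KO (open), with 95% intervals from limma and dotted lines at 2-fold. The points of 7 genes lie beyond the 2-fold line in both cerebellum panels, En1 lies below 1, and in the hippocampus minus cortex panel the points farthest from 0 are Zic1 in WT (1.30), Pax6 in KO (-0.71) and Zic2 in WT (0.60).

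Hippocampus and cortex gave 0 called genes of the 8 in WT, where 1.36% of rows were called, and 0 in KO, where 1.84% were. In WT, Zic1 was 1.30 higher in hippocampus (SE 0.47, adjusted p = 0.101 in limma) and Zic2 0.60 higher (adjusted p = 0.243), and in both all 4 hippocampus arrays exceeded the 4 cortex arrays, as did 8.76% of rows. The other 6 genes overlapped, with differences from -0.07 (En1) to 0.31 (Etv1). With the 12 WT arrays fitted alone, so that no KO array entered the spread, Zic1 passed (adjusted p = 0.00769 in limma). In KO, Zic1 differed by -0.17 and Pax6 by -0.71 (adjusted p = 0.214 in limma), and without cortex KO 1 and KO 4 by 0.93 (adjusted p = 0.274) and 0.13. Without that pair Zic2 moved from 0.06 to 0.61 and Etv1 from 0.16 to 0.42. Zic5, En1 and En2 moved down, to 0.16, -0.125 and -0.26. Without cortex KO 2 alone the KO difference of Pax6 was -1.06 and passed (adjusted p = 0.0266 in limma).

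Zic1 varied more than the other members among hippocampus arrays of both genotypes. From the lowest to the highest the arrays were KO 4 (10.76), WT 2 (11.38), WT 1 (11.65), KO 3 (11.73), KO 2 (12.05), KO 1 (12.65), WT 4 (12.67) and WT 3 (13.24). The mean of 11 choroid plexus markers in that order was 8.23, 8.88, 8.54, 8.73, 9.67, 11.33, 10.25 and 10.05. The 4 arrays with the highest Zic1 were thus the 4 with the highest choroid plexus mean, both genotypes being among them. Over 6 septum and striatum markers the means in the same order were 8.53, 8.66, 8.60, 10.01, 9.18, 9.30, 10.20 and 9.77. Over 12 meningeal markers they were 9.22, 9.72, 9.97, 9.91, 9.84, 10.02, 9.73 and 9.54, again in that order. The part of such tissue in the Zic1 values was not tested. Zic2 ran from 8.77 (KO 4) to 9.89 (KO 2), and Pax6 from 8.44 to 8.98.

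Other genes of the lineage differed between regions less uniformly. Of 21 measured further granule lineage transcription factors, 7 were called higher in WT cerebellum than in cortex, 1 lower and 13 not called, with a median difference of 0.76 log2. Of all rows, 4.51% were called higher and 5.47% lower. Mab21l1 was higher by 5.28 (SE 0.30), Barhl2, a homeodomain factor, by 4.66 and the helix-loop-helix factor Nhlh2 by 2.59. Lhx9 (0.45) and Atoh1 (0.11, adjusted p = 0.559 in limma), the factor that starts the lineage in embryonic precursors, did not pass. The 1 called lower was Meis2 (-3.87), a homeodomain factor. Against the hippocampus 6 of the 21 were called higher and 2 lower, Meis2 (-3.41) and Lhx9 (-1.24), where 3.98% and 5.85% of rows were. Meis2 was named after its values were seen.

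Of 13 midbrain-hindbrain patterning genes, 2 were called higher in cerebellum than in cortex, against 4.51% of all rows. The remaining 11 were not called, and the median of the 13 was 0.09. The called genes were Pax2, a paired-box factor of cerebellar interneuron precursors, at 1.33, and Otx2, a homeodomain factor that is also made in choroid plexus, at 2.35. Irx3 (0.98) fell short of 2-fold with an adjusted p of 3.59e-06 in limma, and Gbx2 (0.09) and Pax5 (0.05) did not pass. The choroid plexus mean, which holds Otx2 among its 11 genes, was 9.56, 10.69, 8.16 and 9.25 in WT cerebellum arrays 1 to 4. Otx2 read 10.42, 10.77, 9.47 and 9.79 in these arrays and 7.61, 7.07, 6.92 and 9.42 in WT cortex. The part of choroid plexus in the Otx2 difference was not tested. Of 18 mature granule cell genes 15 were called higher and 1 lower, against 4.51% and 5.47% of all rows. Among those called higher were Gabra6, a GABA receptor subunit, at 11.28, the synapse organizer Cbln3 at 8.95 and the cadherin Fat2 at 6.14. The gene called lower, Slc17a7 (-1.75), a vesicular glutamate transporter also made by cortical neurons, was named after its values were seen. Rbfox3 (0.58) and Snap25 (0.03), which most neurons express, were not called.

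Between KO and WT cerebellum 0 of the 8 genes passed at an adjusted p under 0.05, and 0.0% of rows did. At an unadjusted p under 0.05 in limma there were 1860 rows, 9.5% of the total, and 688 rows without KO 3. All 8 genes had a lower mean in KO, with differences from -0.05 (En1) to -0.43 (Zic5) and adjusted p from 0.554 to 0.927 in limma, while 50.8% of all rows had a lower mean. Zic5 read 11.16, 10.77, 9.70 and 11.22 in KO arrays 1 to 4 against 11.24, 11.33, 10.73 and 11.28 in WT, Zic2 13.65, 13.40, 12.32 and 13.93, Zic1 17.12, 17.09, 16.03 and 17.31, and Etv1 15.60, 15.74, 14.28 and 15.79. In each of these genes KO 3 was the lowest and the other 3 KO arrays lay within the range of the WT values. En2 read 11.48, 11.45, 10.15 and 11.65, Pax6 12.45, 12.21, 11.11 and 12.50, and Zic4 10.46, 10.36, 9.75 and 10.65 in KO.

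KO 3 was below all 7 other cerebellum arrays in 7 of the 8 genes, as it was in 27.9% of rows. Its difference from their mean was -1.41 for Etv1, -1.40 for Zic5, -1.37 for En2, -1.35 for Zic2, -1.29 for Pax6, -1.11 for Zic1 and -0.72 for Zic4. For En1 it read 8.12, inside the range of 7.79 to 8.54. The mature granule cell mean of KO 3 differed from that of the other arrays by -1.24, with 15 of 18 markers below all 7, and the Purkinje cell mean by -1.02, with 9 of 12 below. Higher in KO 3 than in all 7 others were 12 of 18 brainstem and spinal cord markers, 7 of 7 oligodendrocyte markers, 5 of 6 microglial markers and 8 of 12 meningeal markers, against 23.8% of all rows. Of the brainstem and spinal cord list, Hoxa5, Hoxb5, Hoxa4, Hoxb3, Hoxa3 and Phox2a were not, and Hoxb5 (7.26) was below all 7. The means of the neocortical markers (10.05, others 9.16 to 9.34) and septum and striatum markers (9.02, others 8.05 to 8.60) were also above all 7. The part of other tissue in the lower values of KO 3 was not tested.

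Without KO 3 the KO and WT means of the 8 genes in the cerebellum differed by -0.10 (Zic5) to 0.07 (Zic1), with an adjusted p of 0.999 or more in limma. The groups overlapped in all 8 genes with KO 3 and without it, where 3.5% and 5.08% of rows did not overlap. The 95% interval without KO 3 was -0.46 to 0.27 for Zic5, -0.30 to 0.34 for En2, -0.33 to 0.38 for Etv1, -0.28 to 0.32 for Zic4 and -0.37 to 0.30 for En1. It was wider for Zic1 (-0.93 to 1.06), Pax6 (-0.63 to 0.59) and Zic2 (-0.53 to 0.53). Each interval uses 1 spread per gene over the arrays left in all 6 groups, cortex KO 1 and KO 4 among them. The standard deviation of Zic1 was 0.36 in WT cerebellum and 1.30 in KO cortex. For Pax6 it was 0.29 and 0.98, and for Zic2 0.33 and 0.65. Differences inside these intervals remained compatible with the values of this number of arrays under that shared spread. WT 2 was the second lowest of the 8 arrays for Zic1, Zic2, Pax6 and Etv1, and its granule mean (13.85) was also the second lowest. For Zic5 (11.33) and En1 (8.54) it was the highest of the 8, and for Zic4 and En2 it lay between. Its choroid plexus mean of 10.69 was the highest of the 8, and the part of such tissue in the WT 2 values was not tested.

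**Figure D3:**
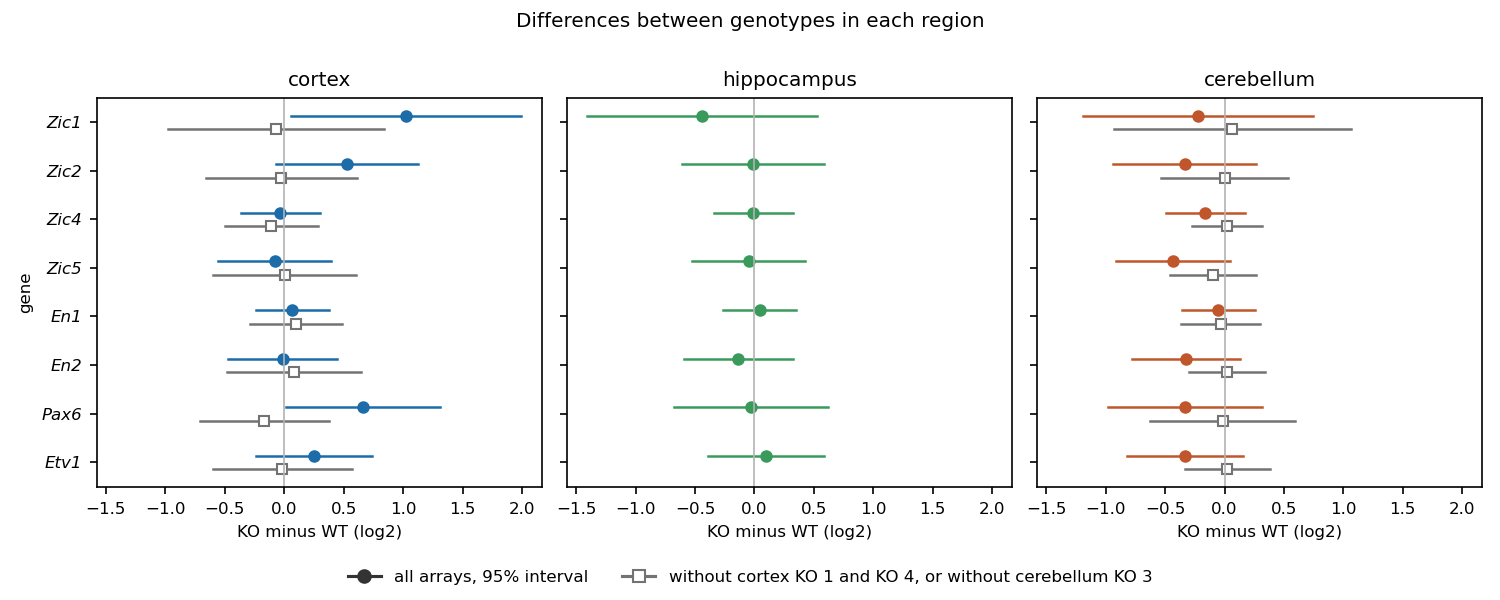
KO minus WT differences (horizontal axis, log2) of the 8 genes (vertical axis) in each region with 95% intervals from limma, over all arrays (circles) and without cortex KO 1 and KO 4 or without cerebellum KO 3 (squares). The cortex differences of Zic1 (1.03), Pax6 (0.67) and Zic2 (0.53) and the negative differences in the cerebellum move to near 0 without those arrays.

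In the cortex 0 of the 8 genes passed between KO and WT, and 0.0% of rows did, with 1459 rows (7.45%) at an unadjusted p under 0.05. Without KO 1 and KO 4 there were 693 such rows. Zic1 read 13.31, 11.08, 10.65 and 12.82 in KO against 10.97, 10.71, 10.83 and 11.25 in WT, Pax6 read 10.32, 8.36, 8.79 and 10.18 against 8.75, 8.93, 8.76 and 8.55, and Zic2 read 10.08, 8.88, 8.77 and 9.77 against 8.96, 8.89, 8.94 and 8.60. In all 3 genes KO 1 and KO 4 were far above the other arrays and KO 2 and KO 3 lay among the WT values or just below them. The groups overlapped in all 8 genes, where 3.68% of rows did not overlap, and also without KO 1 and KO 4, where 13.9% did not. The mean differences were 1.03 for Zic1 (SE 0.47, adjusted p = 0.648 in limma), 0.67 for Pax6 (SE 0.31, adjusted p = 0.653) and 0.53 for Zic2 (SE 0.29, adjusted p = 0.748). Etv1 read 13.41, 12.58, 13.01 and 13.23 in KO, where KO 1 and KO 4 were again the highest pair, and differed by 0.25 (adjusted p = 0.862). Zic4, Zic5, En1 and En2 differed by -0.08 to 0.07.

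KO 1 and KO 4 lay above the other 6 cortex arrays in 4 of the 8 genes, as in 10.6% of rows, by a mean of 2.15 for Zic1, 1.56 for Pax6, 1.08 for Zic2 and 0.51 for Etv1. The same arrays lay above the other 6 in 13 of 14 olfactory bulb markers. Th, the enzyme that opens dopamine synthesis, read 14.18 and 13.23 in them against 8.32 to 9.005, and Eomes, a factor of mitral cells, 11.70 and 11.37 where the rest ran from 6.96 to 7.45. In Zic4, Zic5, En1 and En2 the values of the pair overlapped those of the other 6, although KO 1 was the highest of the 8 for Zic4 (9.282, next WT 3 at 9.277). Their neocortical mean was 12.11 and 12.50, where the other 6 read 12.44 to 12.93. Without KO 1 and KO 4 the differences were -0.07 for Zic1, -0.17 for Pax6, -0.02 for Zic2 and -0.02 for Etv1, with an adjusted p of 0.999 or more in limma for all 8 genes.

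**Figure D4:**
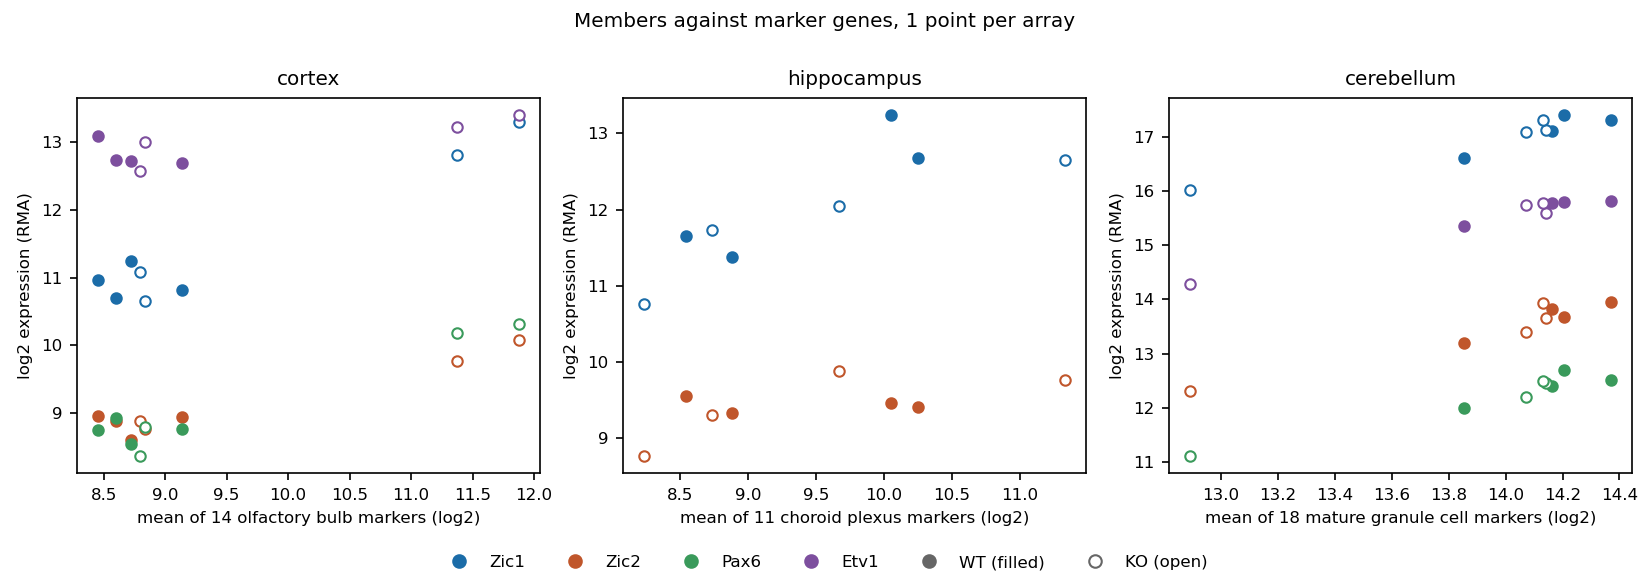
Log2 expression of Zic1, Zic2, Pax6 and Etv1 (vertical axis) against the mean of a marker list (horizontal axis, log2), 1 point per array, WT filled and KO open. In the cortex KO 1 and KO 4 stand apart on both axes at olfactory bulb means of 11.88 and 11.37, in the hippocampus (Zic1 and Zic2 only) high Zic1 goes with a high choroid plexus mean, and in the cerebellum KO 3 is lowest on both axes at a granule cell mean of 12.89.

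In the hippocampus 0 of the 8 genes passed between KO and WT and 0.0% of rows did, with 412 rows (2.11%) at an unadjusted p under 0.05. The largest difference among the members was that of Zic1, -0.44 (SE 0.47, 95% interval -1.41 to 0.53). En2 differed by -0.14 and Etv1 by 0.10, and the other 5 by -0.05 (Zic5) to 0.04 (En1). Every member had an adjusted p of 1 in limma, and the groups overlapped in all 8, where 2.17% of rows did not overlap.

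The difference of the KO effect between the 3 regions was tested directly with an F statistic over 2 contrasts. It gave 0 called members and 0.0% of rows, with 973 rows at an unadjusted p under 0.05. The adjusted p was 0.931 for Zic1, Zic2, Pax6 and Etv1, 0.937 for Zic5, 0.957 for En2, 0.974 for Zic4 and 0.984 for En1 in limma. The cerebellum minus cortex difference in KO minus that in WT was -1.25 for Zic1 (SE 0.66, adjusted p = 0.804 in limma), -1.002 for Pax6 (SE 0.45, adjusted p = 0.775) and -0.86 for Zic2 (SE 0.41, adjusted p = 0.798), none of which passed. Without cortex KO 1 and KO 4 and cerebellum KO 3 these values turned sign, to 0.14 for Zic1 (95% interval -0.96 to 1.23), 0.15 for Pax6 (-0.32 to 0.63) and 0.024 for Zic2 (-0.60 to 0.65). All 8 members then had an adjusted p of 0.999 in limma, and the F statistic again gave 0 called members, with 611 rows at an unadjusted p under 0.05. The further granule lineage factors, patterning genes and mature granule genes likewise gave 0 calls between KO and WT in each region. In the cerebellum 15 of the 21 lineage factors and 17 of the 18 mature granule genes had a lower mean in KO, against 50.8% of all rows, with medians of -0.16 and -0.35, while the 13 patterning genes had a median of 0.02. Without KO 3, 11 of the 21 and 10 of the 18 had a lower mean, against 45.7% of all rows, and the medians were -0.0099 for the lineage factors, -0.040 for the mature granule genes and 0.0024 for the patterning genes.

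Across the 24 arrays the members followed each other closely, and these arrays fall into 3 regions. Pearson's r over arrays was 0.985 between Zic5 and En2, 0.984 between Zic1 and Zic2 and 0.923 between the neighbours Zic1 and Zic4, and for En1 it ran from 0.737 with Zic1 to 0.827 with Zic4. The genes most like Zic1 were Zic2 and Tmem208 (0.981), and those most like Zic2 were Fem1c (0.991) and Chd7 (0.990). En2 was most like Arhgef33 and Fat2 (0.993 each), Pax6 like Tmtc2 (0.991) and Grm4 (0.989), and Zic5 like Crtam (0.992) and Ppp1r17 (0.991). Etv1 was most like Asph (0.988) and Washc2 (0.985), Zic4 like Adamts10 (0.980) and Stap2 (0.978), and En1 like Rnaseh2c (0.928) and Rfc4 (0.879).

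Deviations from the group means gave another picture. Over the 24 deviations Zic2 and Pax6 had an r of 0.827, Zic1 and Zic2 0.777, Zic1 and Pax6 0.749 and Pax6 and Etv1 0.697. With cortex KO 1 and KO 4 and cerebellum KO 3 left out these values were 0.442, 0.556, 0.289 and 0.230. Zic1 and Zic4 had an r of 0.202 with all arrays and -0.27 without the 3. The closest genes by deviations were Scyl2 (0.909) for Zic1, Smarcad1 (0.914) for Zic2, Eml5 (0.930) for Pax6 and Dab1 (0.910), the reelin signalling adaptor, for Etv1. Without the 3 arrays these were 0.827, 0.752, 0.535 and 0.720. For the others the closest were Ror1 (0.850) for Zic4, Phf11b (0.836) for Zic5, Rnaseh2c (0.874) for En1 and Lurap1 (0.850) for En2, which were 0.666, 0.816, 0.878 and 0.369 without the 3 arrays. The second closest were Lca5 (0.858), Plxnb2 (0.881), Ppargc1b (0.839), Ccdc112 (0.833), Crybb1 (0.839), Fam117a (0.846), Ablim3 (0.928) and Ccnl2 (0.906) for Zic1, Zic2, Zic4, Zic5, En1, En2, Pax6 and Etv1. Without the 3 arrays they were 0.664, 0.798, 0.702, 0.785, 0.860, 0.606, 0.522 and 0.712 in that order.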

How the data were processed

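The deposited table holds 22206 rows by 24 arrays of log2 expression values, which the authors made with RMA, per the submitters' processing notes. The sources used here give no RMA version, no settings and no genome build. That the scale is log2 was inferred from the range, 3.89 to 19.14. The labels name both biotin and Cy3 as the label, so the chemistry is not settled. The 19572 rows with a gene in the platform annotation were fitted, without further normalization, in limma 3.58.1 under R 4.3.3 (lmFit, eBayes, 1 mean per region and genotype, 24 arrays, residual degrees of freedom 18, prior 6.9), and p-values were adjusted by Benjamini-Hochberg over all rows of a comparison. Animal numbers within a genotype name the same animal in the 3 regions, per the labels. The consensus correlation within animals was 0.00646 (duplicateCorrelation, statmod 1.5.0), and the fit with the animal as a block is an alternative. No pairs across genotypes exist, since each animal has 1 genotype.

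The members, gene lists and tests were chosen with earlier results of these data known. Named genes are the members, the 3 genes of smallest and the 2 of largest p of each list between WT cerebellum and cortex, and for each member the 2 genes of highest correlation over arrays and over deviations. Th, Eomes, Meis2, Slc17a7 and the brainstem and spinal cord markers not raised in cerebellum KO 3 were named after their values were seen. The fit was tested on simulated data with independent noise in each row. No simulated array stood apart as a whole, so that test does not cover such arrays. Detection above background could not be judged. Promoter sequences come from RefSeq, which had windows for 7 members.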

Additional observations from a re-analysis of the deposited data

Results flagged for a closer look

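In 5 of 48 sets of 4 arrays (8 genes by 6 groups) 1 array stood far from the other 3, its gap, as a share of the range of the set, being over Dixon's 95% critical value. Chance gives about 5% of sets. The 8 genes share the same 24 arrays, so the sets are not independent and their count cannot be weighed against that share. Etv1 read 14.28 in cerebellum KO 3, where the other KO arrays read 15.60 to 15.79, and En2 read 10.15 there against 11.45 to 11.65. Etv1 read 15.35 in cerebellum WT 2 against 15.77 to 15.81, and Zic5 10.73 in cerebellum WT 3 against 11.24 to 11.33. Etv1 read 13.09 in cortex WT 1 against 12.69 to 12.74.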

How the results depend on the processing

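The count of members higher in cerebellum was 7 or 8 under every alternative run in both genotypes, 8 being reached without the 2-fold minimum, and 0 members passed between KO and WT, or differed in KO effect between regions, under any of them. The replicate block (animal) left all counts of members between regions at 7 or 0, and KO and WT could not be paired, since equal numbers name different animals. For hippocampus minus cortex 1 member passed in WT with the WT arrays alone (Zic1), and 1 in KO without cortex KO 2 (Pax6, -1.06, adjusted p = 0.0266 in limma), the range over single arrays being 0 to 1. Each of the 8 measured members has 1 row and passed the filter on dim rows, so averaging rows changed no member's difference. Without cortex KO 1 and KO 4 the direction of KO minus WT in the cortex turned for Zic1 (-0.072), Zic2 (-0.024), Zic5 (0.00402), En2 (0.080), Pax6 (-0.17) and Etv1 (-0.016), and that of hippocampus minus cortex in KO for Zic1 (0.93), Zic4 (0.032) and Pax6 (0.13). With those arrays and cerebellum KO 3 left out, chosen after seeing the data, the KO effect in cerebellum minus that in cortex turned for Zic1 (0.14), Zic2 (0.024), Zic4 (0.13), Pax6 (0.15) and Etv1 (0.039). Leaving out single arrays turned the direction of differences that had not passed. For KO minus WT the ranges were -0.15 to 0.065 (Zic4) and -0.13 to 0.080 (En2) in cortex. In hippocampus they were -0.16 to 0.21 (Zic2), -0.094 to 0.060 (Zic4), -0.14 to 0.079 (Zic5), -0.055 to 0.22 (En1) and -0.089 to 0.058 (Pax6). In cerebellum they were -0.39 to 0.066 (Zic1), -0.28 to 0.021 (Zic4), -0.20 to 0.053 (En1), -0.48 to 0.022 (En2) and -0.48 to 0.023 (Etv1). For hippocampus minus cortex they were -0.15 to 0.031 (Zic4), -0.15 to 0.039 (En2) and -0.097 to 0.048 (Pax6) in WT. In KO they were -0.61 to 0.28 (Zic1), -0.14 to 0.29 (Zic2), -0.13 to 0.070 (Zic4), -0.19 to 0.083 (En1) and -0.00242 to 0.27 (Etv1), while Pax6 kept its direction (-1.06 to -0.41). Apart from the arrays left out, the cause was not tested. The 4 arrays per group limit the precision, and without scanner files the signal over background is unknown.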
